A study of Eutrema with 12 samples.

Results

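The ss cDNAs are the clones on a custom Thellungiella cDNA microarray whose spot names begin with the letters ss followed by a digit, once the spot letter at the end of the name is dropped. They number 36 of the 4279 cDNAs of the array and occupy 111 of its 13449 cDNA spots. Every one of the 36 carries the plate label ss1 in its name, followed by a letter and a number in the style of a well. None of the sources used here says what the letters ss stand for, and no table among them that was read here pairs these clones with genes. The ss cDNAs are therefore described by clone name, with no gene, function or sequence.

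Thellungiella salsuginea, also called Eutrema, is a small crucifer related to Arabidopsis that grows on saline soil and is known for its tolerance of salt, cold and drought. The array holds cDNAs from libraries enriched for stress-responsive transcripts, and several clones can belong to 1 gene. Some entries carry a gene name such as ACTIN in place of a plate label, and 1239 of the 14688 spots are controls or unnamed. On an array of this type the RNA of 2 sources is labelled with different dyes and hybridised to the same spots, and the ratio of the dyes compares the transcript between the sources. Cauline leaves, the tissue used here, are the leaves borne on the flowering stem.

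The field groups were 3 individual plants of the Yukon ecotype harvested from their natural habitat in 2005 and 3 harvested there in 2003, exposed to ambient conditions. The cabinet control was the same ecotype grown for 12 weeks in controlled chambers, with no treatment applied. Each field plant's leaf RNA was hybridised together with that of cabinet plants on 2 arrays, once with each dye, giving 12 arrays for 6 plants. The third plant of 2005 is lettered C in the sample records and D in the description of the design. Field mRNA was amplified once before labelling and cabinet mRNA was not, so that growth site and amplification cannot be told apart in any field against cabinet ratio. Whether several field plants were compared with the same cabinet RNA is not stated, so the tests against the cabinet may leave out the spread between cabinet plants. The tissue was not checked against marker genes here, since no ss clone is paired with a gene.

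Brightness over local background was 7.93 to 34.3 for the median spot of an array, and no ss spot was among the 31 to 400 of an array that reached the scanner maximum. The ss cDNAs were 3.62 to 53.2 times as bright as background in the field channel, with a median of 11.8, and 4.39 to 56.3 times in the cabinet channel, with a median of 11.0. For the 87 spots with no name the same values were 3.55 in the field channel and 3.68 in the cabinet channel. No ss cDNA was at or below that level in both channels over all arrays, as against 3.6% of all cDNAs. Against the unnamed spots of the same year, 1 ss cDNA was at or below the level on the 2005 arrays and another 1 on the 2003 arrays.

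The values below are log2 ratios of field over cabinet, averaged over the spots of a clone and then over both arrays of a plant, so that 0 is the cabinet level and 1 is a doubling. A cDNA was called higher or lower in the field when limma gave a Benjamini-Hochberg adjusted p under 0.05 over all 4279 cDNAs and the mean change was at least 1.5-fold. Plants are the replicates, with n = 3 in each year.

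In the field plants of 2005 the ss cDNAs lay mostly above the cabinet level. Their median log2 ratio was 0.44, with single clones between -0.71 and 1.71, while the median of all cDNAs was -0.03. Plant by plant, the median of the 36 clones was 0.34 in plant A, 0.58 in plant B and 0.41 in plant C. Plant A had 25 of the 36 clones above the cabinet, plant B had 23 and plant C had 25. Without plant A of 2005 the median over all 36 clones was 0.58. In the plants of 2003 the median over the 36 clones was 0.03, with single clones between -0.66 and 1.59, and the median of all cDNAs was -0.00. The medians by plant were -0.12 in plant A, 0.14 in plant B and 0.14 in plant C, with 16, 21 and 24 clones above the cabinet. Without plant A of 2003 the median of that year was 0.19, and it was -0.02 with median centring of the arrays, with the deposited processed values and with scan day as a random block, so the median of 2003 had no settled side of the cabinet level.

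**Figure D1:**
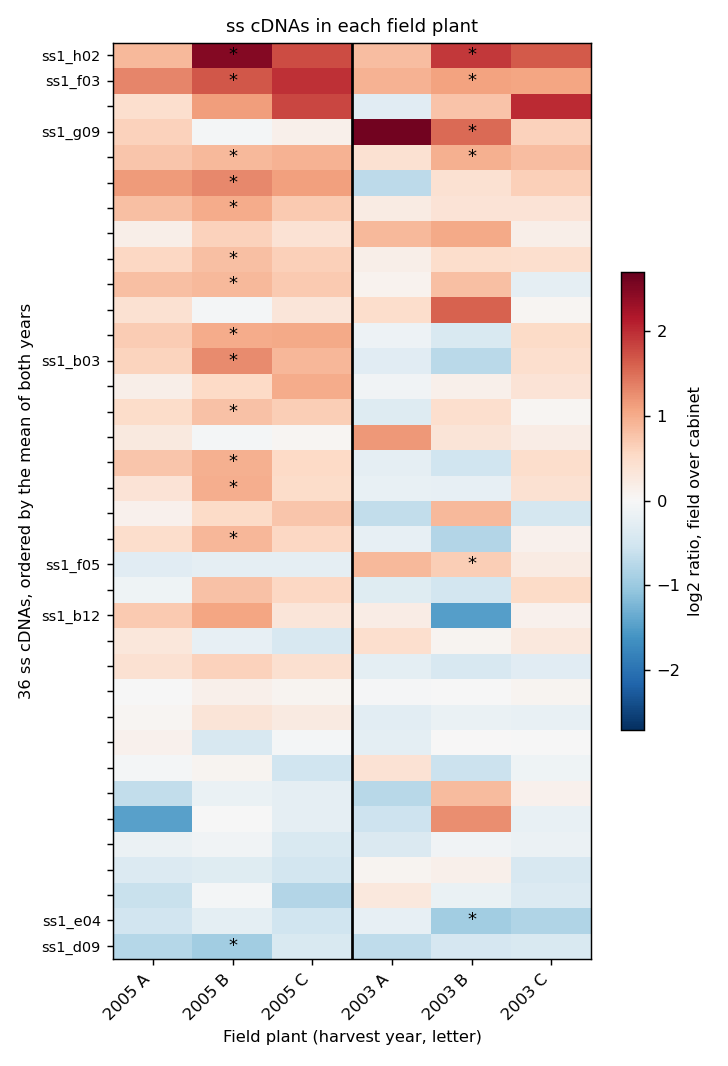
Log2 ratio of field over cabinet (colour) for the 36 ss cDNAs (down the page, by the mean of both years) in each field plant of 2005 and 2003 (across), with the names of the 8 clones given values in the text. Asterisks mark clones called in a year (14 in 2005 and 6 in 2003), and red fills most of the upper part of the 2005 columns while the 2003 columns are mixed.

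In the comparison of field 2005 with the cabinet, 14 of the 36 ss cDNAs were called, beside 31.5% of all cDNAs. The calls ran largely one way. Called higher were 13 clones (36.1%), beside 16.4% of all cDNAs, and called lower was 1 clone (2.78%), beside 15.1% of all cDNAs. The 13 higher clones spanned 1.53-fold to 3.27-fold, with limma adjusted p of 0.0020 to 0.049. By sign alone, 20 clones lay above the cabinet in 3 of 3 plants of 2005, beside 36.1% of the array, and 8 lay below it in 3 of 3, beside 38.8%. On the single arrays of that year 17 clones were above the cabinet on 6 of 6, beside 29.7% of the array, and 6 were below it on 6 of 6, beside 31.7%. With a plant left out the calls of 2005 dropped to 4 clones without plant A of 2005, 2 without plant B and 3 without plant C, while those of the whole array dropped to 17.2%, 10.6% and 13.3%. Called higher were then 4, 2 and 2 of the 36 clones, beside 399, 217 and 269 of the 4279 cDNAs. In these fits the share of ss cDNAs called higher lay near that of the array. Normalizing each spotting block on its own gave 9 calls, 7 higher and 2 lower, beside 27.9% of the array, where 598 of the 4279 cDNAs were called higher.

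In the comparison of field 2003 with the cabinet, 6 of the 36 ss cDNAs were called, beside 17.4% of all cDNAs. Called higher were 5 clones (13.9%), beside 10% of all cDNAs, and called lower was 1 clone (2.78%), beside 7.31%. Both shares lay nearer to those of the array than in 2005. The 5 higher clones spanned 1.5-fold to 3.00-fold, with limma adjusted p of 0.012 to 0.046. By sign alone, 11 clones were above the cabinet in 3 of 3 plants of 2003, beside 27.1% of the array, and 5 were below it in 3 of 3, beside 26%. The count fell to 1 clone without plant B of 2003 (8.93% of the array). Both years share 1 estimate of the spread, and the count of 2003 also fell to 3 without plant A of 2005 (11% of the array), 3 without plant B of 2005 (12%) and 1 without plant C of 2005 (10.7%). With the year fitted alone limma called 0 ss cDNAs and 0 cDNAs of the whole array, with 8 ss cDNAs at an unadjusted p under 0.05.

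Clones with other name prefixes differed from the ss cDNAs in their shares. Of the 135 cDNAs whose names begin with sc, 23.7% were called higher and 10.4% lower in 2005, and 24.4% higher and 2.96% lower in 2003. Of the 38 that begin with sd, 23.7% were called higher and 5.26% lower in 2005, and 5.26% higher and 21.1% lower in 2003. The ss cDNAs thus had a larger share of higher calls in 2005 than either set, and in 2003 a share between theirs. By sign alone the sets were closer in 2005, with 55.6% of the ss, 55.6% of the sc and 50% of the sd cDNAs above the cabinet in 3 of 3 plants, and 47.2%, 42.2% and 42.1% above it on 6 of 6 arrays. These are shares side by side, with no test of the difference.

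**Figure D2:**
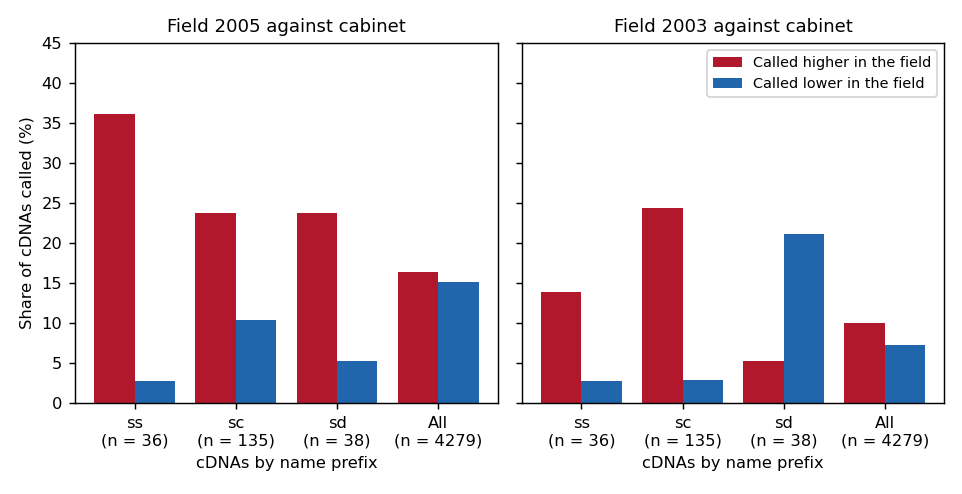
Share of cDNAs (in %) called higher or lower in the field than in the cabinet, for the ss, sc and sd cDNAs and for all cDNAs of the array, in 2005 (left panel) and 2003 (right panel). In 2005 the ss bar for higher calls stands at 36.1% and that for lower calls at 2.78%.

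Calls in both years were few. In at least 1 year 17 ss cDNAs (47.2%) were called, beside 40.2% of the array. Called higher in both were 3 ss cDNAs (8.33%), beside 3.88% of the array, and none was called lower in both, beside 4.6%. Another 10 clones (27.8%) were called higher in 2005 and not called in 2003, beside 12.4% of the array. Those 10 had mean log2 ratios of 0.61 to 1.19 in 2005 and of -0.29 to 0.36 in 2003. That they passed in 1 year only is no test of the years, and for these 10 clones the differences of 0.31 to 1.11 had limma adjusted p of 0.10 to 0.35. Called higher in 2003 only were 2 clones (5.56%), beside 6.08% of the array. Called lower in 2005 only was 1 clone, beside 10.4% of the array, and called lower in 2003 only was 1 clone, beside 2.64%. The other 19 clones were called in neither year, with mean log2 ratios of -0.58 to 1.13 in 2005 and -0.39 to 0.83 in 2003. All 6 field plants were above the cabinet for 6 clones (16.7%), beside 15.4% of the array, and below it for 3 clones (8.33%), beside 17.6%.

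**Figure D3:**
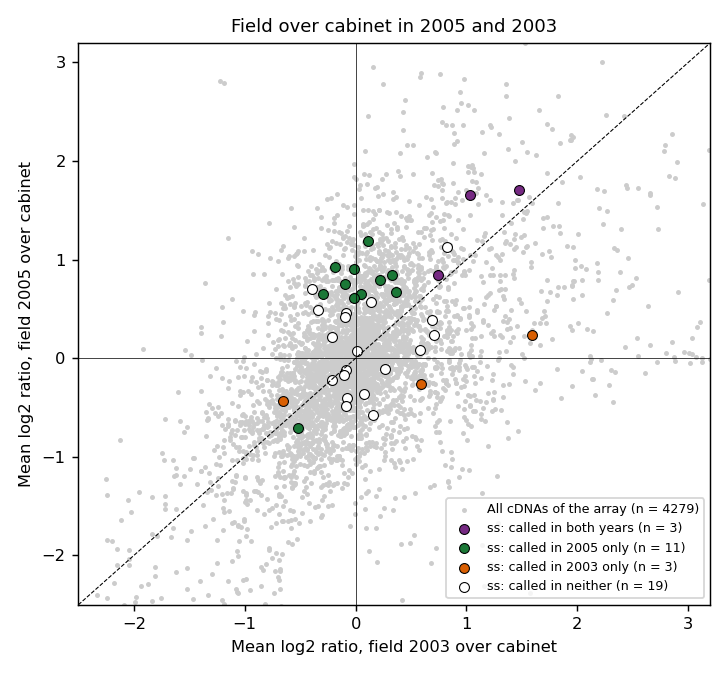
Mean log2 ratio of field over cabinet in 2005 (vertical axis) against 2003 (horizontal axis) for all cDNAs (grey) and the 36 ss cDNAs (outlined, coloured by the year of the call), with the line of equal values dashed. The 11 clones called in 2005 only lie mostly above that line, and 106 grey cDNAs lie beyond the axes, which run from -2.5 to 3.2.

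The clone with the highest mean of both years was ss1_h02. Its log2 ratios were 0.88, 2.48 and 1.77 in plants A, B and C of 2005, and 0.83, 1.92 and 1.67 in plants A, B and C of 2003. All 6 plants were above the cabinet, plant A was the lowest in each year, and the years overlapped. The mean was 1.71 ± 0.81 in 2005 (SD, n = 3), a 3.27-fold higher level with a limma adjusted p of 0.011, and 1.47 ± 0.57 in 2003 (SD, n = 3), 2.77-fold with a limma adjusted p of 0.029. The call of 2005 was lost without plant B of 2005 (adjusted p = 0.068) and without plant C of 2005 (adjusted p = 0.061). The call of 2003 was lost without plant B of 2003 (adjusted p = 0.11), plant C of 2003 (adjusted p = 0.10) or plant C of 2005 (adjusted p = 0.061). This clone was bright, at 54.3 times background in the field channel and 18.6 in the cabinet channel of the 2005 arrays.

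The next clone, ss1_f03, was called higher in both years with less spread. Its log2 ratios were 1.31, 1.67 and 1.98 in plants A, B and C of 2005, and 0.95, 1.09 and 1.06 in plants A, B and C of 2003. Every plant of 2005 was above every plant of 2003, and all 6 were above the cabinet. The mean was 1.66 ± 0.33 in 2005 (SD, n = 3), 3.15-fold with a limma adjusted p of 0.0020, and 1.03 ± 0.08 in 2003 (SD, n = 3), 2.05-fold with a limma adjusted p of 0.012. The difference of 0.62 between the years had a limma adjusted p of 0.14 and was not called. The 12 arrays were alike in direction, with values of 1.06 to 2.29 on the 6 arrays of 2005 and 0.54 to 1.35 on the 6 of 2003. The call of 2005 was kept under each of the 25 other settings that were run.

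The remaining 11 clones called higher in 2005 had means of 0.61 to 1.19, or 1.53-fold to 2.28-fold, so that ss1_h02 and ss1_f03 stood above the rest. In 2005 the means of 4 clones were at least 1 and those of 11 lay between the 1.5-fold limit and 1. The means of 20 lay within 1.5-fold of the cabinet, and that of 1 lay more than 1.5-fold below the cabinet. In 2003 these counts were 3, 5, 27 and 1. In 2005, 1 more clone passed the adjusted p with less than a 1.5-fold change, beside 3.69% of the array.

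The lowest clone of the 36 was ss1_d09. Its log2 ratios were -0.77, -0.94 and -0.41 in plants A, B and C of 2005, and -0.69, -0.44 and -0.42 in plants A, B and C of 2003. All 6 plants were below the cabinet and the years overlapped. The mean was -0.71 ± 0.27 in 2005 (SD, n = 3), called lower with a limma adjusted p of 0.015, and -0.52 ± 0.15 in 2003 (SD, n = 3), not called with a limma adjusted p of 0.058. Without plant A of 2005 the call of 2005 was lost (adjusted p = 0.079), as it was without plant B of 2005 (adjusted p = 0.10) and with a random block for scan day (adjusted p = 0.093). In all it was lost in 7 of the 25 other settings. The spots were dim, at 4.83 times background in the field channel and 8.03 in the cabinet channel of the 2005 arrays.

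The other low clone was ss1_e04. Its log2 ratios were -0.51, -0.26 and -0.54 in plants A, B and C of 2005, and -0.22, -0.94 and -0.81 in plants A, B and C of 2003. Again all 6 plants were below the cabinet, with plant B lowest in 2003 and highest in 2005. The mean was -0.44 ± 0.16 in 2005 (SD, n = 3), not called with a limma adjusted p of 0.095, and -0.66 ± 0.38 in 2003 (SD, n = 3), called lower with a limma adjusted p of 0.045. The call of 2003 was lost in 15 of the 25 other settings, among them the plant letter as a replicate block (adjusted p = 0.055) and each fit without plant B or C of 2003 (adjusted p = 0.14 in each) or plant A (0.084), B (0.073) or C (0.086) of 2005.

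**Figure D4:**
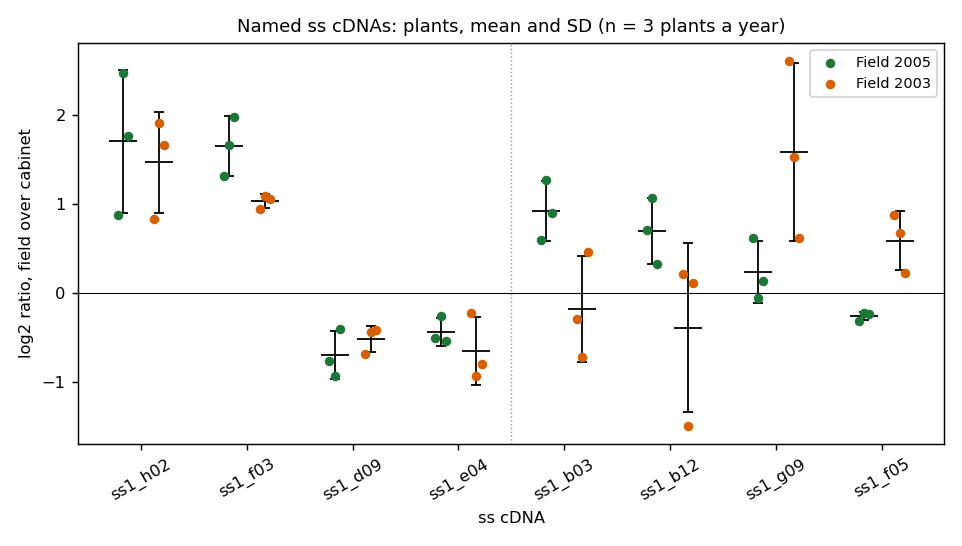
Log2 ratio of field over cabinet (vertical axis) in single plants of 2005 (green) and 2003 (orange) for the 8 named ss cDNAs, with the mean (horizontal bar) and SD (whiskers) of 3 plants. The 4 on the left were chosen by the mean of both years and the 4 on the right by the difference between the years. ss1_h02 and ss1_f03 lie above 0 in all 6 plants, ss1_d09 and ss1_e04 below 0 in all 6.

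The years were compared directly in the same fit. The mean was higher in 2005 than in 2003 for 22 of the 36 ss cDNAs (61.1%), beside 48.3% of the array, and the median difference of 2005 minus 2003 was 0.27, beside -0.02 for all cDNAs. Without plant A of 2005 that median was 0.44, and without each other plant in turn it was 0.18 to 0.34. No single ss cDNA was called by limma, beside 1.59% of the array (0.771% higher and 0.818% lower), and the lowest adjusted p was 0.062. At an unadjusted p under 0.05 there were 11 ss cDNAs (30.6%), beside 27.2% of the array. Of these, 9 were higher in 2005 (25%), beside 12.7% of the array, and 2 were lower (5.56%), beside 14.5%. For 12 clones (33.3%) every plant of 2005 was above every plant of 2003, beside 16.8% of the array, and for 1 clone (2.78%) every plant of 2005 was below, beside 17.9%. The sd cDNAs differed more between the years, with a median difference of 0.69, 84.2% of them higher in 2005 and 52.6% with every plant of 2005 above every plant of 2003. The arrays were scanned on 2 days for 2005 and 4 for 2003, none of them shared. With scan day as a random block 3 ss cDNAs were called, 1 higher and 2 lower, beside 9.82% of the array. That setting takes the 12 arrays singly and not the plant means, so plants are not its replicates.

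The clone with the largest positive difference was ss1_b03. Its log2 ratios were 0.59, 1.27 and 0.90 in plants A, B and C of 2005, and -0.30, -0.72 and 0.46 in plants A, B and C of 2003. The years did not overlap, and plant B was the highest of 2005 and the lowest of 2003. The difference was 1.11, with a 95% interval of 0.27 to 1.94 and a limma adjusted p of 0.12. The intervals here and below are for single clones. They are not adjusted for the choice of these clones by the size of the difference, or for the number of cDNAs tested. In 2005 ss1_b03 was called higher than in the cabinet at 1.9-fold (limma adjusted p = 0.029).

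Next came ss1_b12, with log2 ratios of 0.70, 1.07 and 0.32 in plants A, B and C of 2005, and 0.21, -1.50 and 0.11 in plants A, B and C of 2003. Here too the years did not overlap, but plant B of 2003 lay far below the other plants of that year. The difference was 1.09, with a 95% interval of -0.08 to 2.26 and a limma adjusted p of 0.21, and the clone was called in neither year. Without plant B of 2003 the difference was 0.54.

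The largest negative difference belonged to ss1_g09, with log2 ratios of 0.62, -0.06 and 0.14 in plants A, B and C of 2005, and 2.61, 1.53 and 0.62 in plants A, B and C of 2003. Plant C of 2003 and plant A of 2005 were at the same level, and plant A of 2003 held the highest value of any ss cDNA in any plant. The difference was -1.35, with a 95% interval of -2.55 to -0.16 and a limma adjusted p of 0.15. It was -0.84 without plant A of 2003, and passed with a random block for scan day (-1.45, adjusted p = 0.046). The clone was called higher than the cabinet in 2003 at 3.00-fold (limma adjusted p = 0.028). That call rests on the spread shared by both years, while its SD was 0.999 in 2003 and 0.349 in 2005. With 2003 fitted alone limma called 0 cDNAs of the whole array, this clone included. On the 2005 arrays its spots were no brighter than spots with no name, at 2.88 times background in the field channel and 2.67 in the cabinet channel, beside 3.21 and 3.10 for the unnamed spots. On the 2003 arrays they were at 14.8 (field) and 7.62 (cabinet) times background, so that the ratio of 2005 was measured near the background and that of 2003 was not.

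The 2005 minus 2003 difference that was next lowest was that of ss1_f05. Its log2 ratios were -0.32, -0.23 and -0.24 in plants A, B and C of 2005, and 0.87, 0.67 and 0.22 in plants A, B and C of 2003. The clone lay below the cabinet in 3 of 3 plants of 2005 and above it in 3 of 3 plants of 2003, on all 12 arrays. It is 1 of 3 ss cDNAs (8.33%) whose plants lay on opposite sides of the cabinet in 3 of 3 plants of each year. That share is near the 7.13% of the array. The difference was -0.85, with a 95% interval of -1.39 to -0.32 and a limma adjusted p of 0.078. With scan day as a random block, a fit to the 12 single arrays, it was -0.91 and passed (limma adjusted p = 0.026). It was called higher than the cabinet in 2003 at 1.5-fold, just over the limit (limma adjusted p = 0.046), and not called in 2005 (limma adjusted p = 0.23).

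The spread between plants was wider in 2003. The median SD over the 3 plants was 0.235 in 2005 and 0.424 in 2003 for the ss cDNAs, and 0.236 in 2005 and 0.375 in 2003 for all cDNAs. Of the 36 clones 24 (66.7%) had the larger SD in 2003, beside 70.5% of the array. Across the 36 clones, pairs of plants of 2005 correlated at r = 0.740 to 0.870 and pairs of 2003 at r = 0.279 to 0.417, while over all cDNAs the ranges were 0.817 to 0.856 and 0.552 to 0.696. Plant C of 2003 correlated at r = 0.574, 0.679 and 0.772 with plants A, B and C of 2005, and at 0.279 and 0.393 with plants A and B of its own year. The 2 arrays of 1 plant correlated at r = 0.822 to 0.916 across the ss cDNAs. These correlations are over clones that share arrays and possibly cabinet RNA, and are given as a description.

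The spots of a clone were close to one another. Of the 36 clones 35 had 3 adjacent spots, and for ss1_f03 the 3 spots gave means of 1.69, 1.62 and 1.66 in 2005, and 1.03, 1.05 and 1.02 in 2003. The only clone with 6 spots, ss1_g10, is named for that reason. It had 3 spots with the letter G at the end of the name and 3 with the letter F, whose meaning is not given. In plants A, B and C of 2005 its G spots had log2 ratios of 0.26, -0.10 and 0.03 and its F spots 0.25, 0.02 and 0.07. In plants A, B and C of 2003 the G spots had 1.36, 0.37 and 0.31 and the F spots 0.97, 0.34 and 0.10. Both sets of spots put plant A of 2003 highest, and the clone was called in neither year.

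The ss cDNAs were spread over most blocks of the array but lay at few positions within a block. Of the 48 spotting blocks 36 held an ss clone, and apart from ss1_g10 the clones lay at 1 of 2 positions within their block, 16 in row 12 and 19 in row 7. These positions divided the clones in a way that was seen in the data and carries no test. The 16 clones in row 12 had a median log2 ratio of 0.63 in 2005 and -0.06 in 2003. Their medians in plants A, B and C were 0.45, 0.81 and 0.55 in 2005, and -0.17, -0.32 and 0.20 in 2003. Of these 16, 8 (50%) were called higher in 2005 and 0 were called in 2003, and 13 had the higher mean in 2005, with a median difference of 0.59. The 19 clones in row 7 had a median of 0.23 in 2005 and 0.16 in 2003 and a median difference of -0.03. They held 5 of the higher calls of 2005 and the 1 lower call, and all 6 calls of 2003. In the plants of 2003 the medians of the row 7 clones were 0.07, 0.77 and 0.12 in A, B and C, so that plant B was high for row 7 and low for row 12.

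Other cDNAs with the same row and columns lie in other blocks and carry other plate labels, so they differ from the ss clones in place on the array as well. The 25 other cDNAs in row 12 and the same columns had a median of -0.21 in 2005 and -0.10 in 2003 and a median difference of -0.17, with 5 (20%) called higher in 2005. The 28 others at the row 7 position had a median difference of -0.03. With the local median of neighbouring spots removed, an alternative chosen after seeing the data, the median difference was 0.55 for the row 12 ss clones and -0.03 for the other cDNAs there. Under that alternative the median of all 36 clones in 2005 was 0.29 in place of 0.44, and 11 clones were called, all higher, beside 33.2% of the array. The 17 clones with well letters a to d had a median difference of 0.58, with 15 higher in 2005 than in 2003. The 19 with letters e to h had a median difference of -0.07, with 7 higher. This split is largely the split by row again, since most clones with letters a to d lie in row 12. The ss clones of row 12 and of row 7 also lie in different columns of blocks, so row and block column cannot be told apart. The part of position or plate in the differences between the years was not tested.

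**Figure D5:**
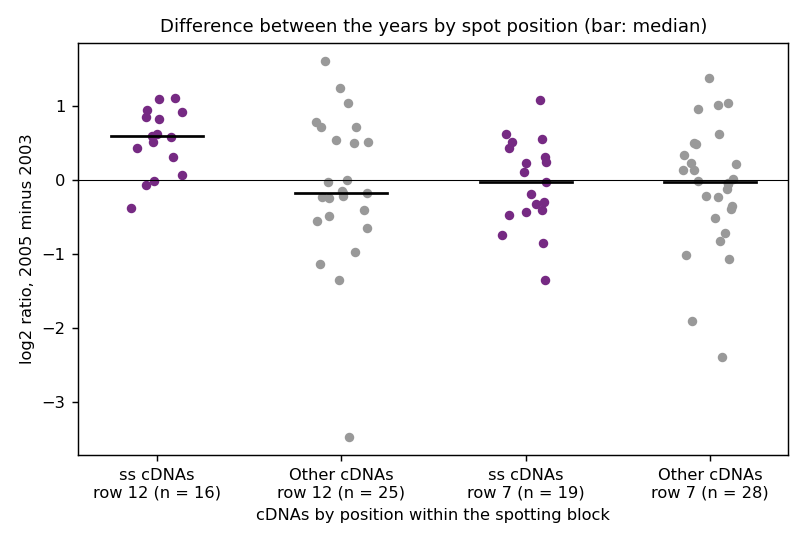
Difference in mean log2 ratio, 2005 minus 2003 (vertical axis), for ss cDNAs (purple) and other cDNAs (grey) at the 2 positions within a spotting block that hold ss clones, with the median as a bar. The 16 ss clones of row 12 have a median of 0.59 and the 25 other cDNAs there a median of -0.17, while both sets of row 7 have a median of -0.03.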

How the data were processed

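The authors deposited QuantArray tables with the linear intensity of each spot and its local background in both channels, with no background subtraction, and a matrix of processed log10 values. The deposited log10 values correlated at r = 0.934 to 0.994 with the log2 ratio of field over cabinet, at a slope of 0.261 to 0.296, with column medians of -0.0188 to 0.0126. The sources used here do not give their normalization, and they served as an alternative. The methods' Bayesian model was not repeated.

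Group, year and plant letter came from the sample labels. The analysis used limma 3.58.1 (R 4.3.3) with normexp background correction (offset 50) and loess within arrays, control spots having weight 0. Values were averaged over the spots of a clone and over both arrays of a plant. For all 4279 cDNAs the fit had 1 mean a year and a common spread (4 residual and 2.66 prior degrees of freedom). The plants are labelled as biological replicates, and their number, 3 a year, limits the precision. The procedure was tested on simulated data.

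The named clones were the 2 highest and 2 lowest by the mean of both years among those called in at least 1 year, and the 2 highest and 2 lowest by the difference between the years. The ss cDNAs and these lists were chosen with earlier results of these data known. Plants of the same letter in both years deviated together (r = 0.576 for A, 0.243 for B and 0.314 for C across cDNAs), so the letters may pair the plants. This pairing comes from the data, not from the labels, and was not tested. The main fit treats the plants of the 2 years as unpaired, and its p values and intervals for the difference rest on that. The fit with the plant letter as a replicate block is an alternative. Alternatives were other background corrections, normalizations, filters, spot averages, call rules, replicate units, blocks and left-out plants.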

Additional observations from a re-analysis of the deposited data

Results flagged for a closer look

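For 3 of the 36 ss cDNAs all plants of 2005 lay on one side of the cabinet and all plants of 2003 on the other. That is 8.33% of the ss cDNAs, a share near the 7.13% of the array. In 2 of the 3 clones 2005 was above the cabinet and 2003 below it, and in the third, ss1_f05, it was the reverse. With the local median of neighbouring spots removed, the 2005 mean of ss1_f05 was 0.003 and no longer below the cabinet. The 2005 minus 2003 difference of ss1_f05 was -0.85 and did not pass the limma test over all cDNAs (adjusted p = 0.078), but did with a random block for scan day (-0.91, adjusted p = 0.026). For the other 2 clones the limma difference was not called either.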

How the results depend on the processing

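Percentages are the share of all cDNAs called under the same setting. In 2005 14 ss cDNAs were called (31.5%), and 9 with print-tip loess (27.9%). The count was 2 with log odds above 0 as the call rule (8.55%) and 5 without plant A of both years (17.8%). With each plant left out in turn it was 2 to 15 (10.6% to 36.7%). In 2003 6 were called (17.4%), and 3 with no background correction (14.9%) and 1 with log odds above 0 (4.77%). The count was 0 with the year fitted alone in limma (0%), with 8 at an unadjusted p under 0.05. It was 2 without plant A of both years (5.89%) and 1 to 4 with each plant left out (8.93% to 15.8%). For the difference between the years 0 were called (1.59%), and 1 with arrays scaled to a common spread (6.78%). With the 12 arrays as independent replicates 11 were called (29%), and with scan day as a random block 3 (9.82%). With each plant left out 0 were called (0% to 3.69%), and without any 1 plant of 2005 the share of the array was 0% too. The setting with scan day as a block also takes the 12 arrays singly. With the plant letter as a replicate block 12 ss cDNAs were called in 2005 (36%), 6 in 2003 (22.3%, 4 of the clones among the 6 given first) and 0 for the difference (8.25%). Of the 4 clones named by the mean of both years, this block ended only the call of ss1_e04 in 2003. The settings without plant A of both years, with the local median of neighbouring spots removed and with the G spots alone were chosen after seeing the data. Under all of these settings the clones named by the mean of both years kept their sign in each year. Those named by the difference between the years kept the sign of that difference. The 2005 mean of ss1_f05 changed from -0.26 to 0.003 with the local median of neighbouring spots removed. The precision is limited by 3 plants a year, and for ss1_g09 also by its signal on the 2005 arrays.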
